A study of Mus musculus with 90 samples.

Results

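Transcripts of 8 genes that mark astrocytes or carry out their transport work were followed in amygdala, frontal cortex and hypothalamus of male mice that had or had not met another male. The genes were chosen by name as Slc1a2, Slc1a3, Aqp4, Gja1, Gfap, Aldoc, Aldh1l1 and S100b, and each matched 1 of the 37991 gene rows of the count table by its mouse Ensembl identifier. Residents were C57BL/6J males that had shared a cage with 1 female, who was taken out before the test. For 5 min they met either an unfamiliar BALB/cJ male behind wire mesh or, as controls, the same mesh cage with a paper cup in it. The 3 regions were dissected 30, 60 or 120 min later, and poly(A) RNA was sequenced in 90 libraries that form 18 groups of region, time and condition. Groups held 5 libraries, apart from 3 in the hypothalamus controls at 30 min and 6 in each frontal cortex group at 120 min. A library from a resident that met the male is called an intruder library here. The mice carried no engineered allele according to the labels. The 90 libraries came from 32 animals, 28 of which gave all 3 regions. The design text speaks of pooled RNA while each label names 1 animal, so libraries were treated as single animals.

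Astrocytes are glia that surround synapses and blood vessels. They take up released glutamate through sodium-driven transporters, move water and potassium at their endfeet, and share small molecules with one another through gap junctions. GFAP, an intermediate filament protein, is their classical histological marker, although its level is known to vary widely between brain regions.

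The deposited values are read counts, but regulatory sequence gives them context, and RefSeq promoter windows (build GRCm38.p6) could be matched for 7 of the 8 genes. The 250 bases before the annotated start are shown for Slc1a3, which was lower at 60 than at 30 min in frontal cortex as Slc1a2 was, and for Gfap, the gene that differed most between amygdala and frontal cortex. Both lie on the minus strand and are written 5′ to 3′. Capitals mark the CCAAT box, the letters CCAAT on either strand, a common core promoter element.
Slc1a3, chr15:8710808-8711057: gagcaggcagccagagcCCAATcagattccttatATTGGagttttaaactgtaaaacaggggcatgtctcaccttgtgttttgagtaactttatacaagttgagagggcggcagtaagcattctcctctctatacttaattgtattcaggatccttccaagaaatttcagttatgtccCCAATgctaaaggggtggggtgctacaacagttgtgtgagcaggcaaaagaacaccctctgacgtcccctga
Gfap, chr11:102897201-102897450: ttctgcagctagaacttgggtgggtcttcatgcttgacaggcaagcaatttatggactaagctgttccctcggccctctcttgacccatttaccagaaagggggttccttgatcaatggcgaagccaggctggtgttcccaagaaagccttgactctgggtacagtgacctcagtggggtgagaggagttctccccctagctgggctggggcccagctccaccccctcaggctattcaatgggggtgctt
The Slc1a3 window holds 3 CCAAT boxes, and the Gfap window holds none. Of 32851 RefSeq windows of this length, 33.8% hold at least 1. The Slc1a3 start lies 43 bases before that of the Gencode M21 gene, and the Gfap start lies 3712 bases inside the Gencode gene. On both strands 8 other motifs were searched. The full NFI palindrome was in 0.0365% of all windows, the short NFI motif TTGGC, which can overlap a CCAAT box, in 41.5%, and the GC box GGGCGG in 32.7%. The TATA box TATAAA was in 12.4% of windows, the STAT letters TTCNNNGAA in 7.02%, the AP-1 letters TGANTCA in 6.75%, the E-box CANNTG in 66.2%, and the short glucocorticoid receptor motif TGTTCT in 16.1%. The Gfap window holds none of the 9, and the Slc1a3 window holds 6 of them: the CCAAT box, the GC box, the TATA box, the STAT letters, the E-box and the short glucocorticoid receptor motif. These are letter matches and not shown binding sites.

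Libraries held 38.6 to 58.86 M reads assigned to genes (median 49.01 M), and the fits tested 17091 to 17676 genes per region. A gene is said to be called where its Benjamini-Hochberg adjusted p, over all genes tested, was below 0.05 in the quasi-likelihood F test of edgeR. Levels are CPM, read counts relative to library size after scaling by the trimmed mean of M-values (TMM). The column headers carry the token ISO in all 28 libraries of 30 min and CERV in the 62 of 60 and 120 min. No source used here explains the token, so a change from 30 min cannot be told apart from it. In frontal cortex at 120 min all controls shared one leading library index and all intruder libraries another, so index and condition cannot be told apart there. No frontal cortex library of 30 min shared a leading index with a later one, so index and the step from 30 min cannot be told apart in that region either. In amygdala no intruder library of 30 min shared a leading index with a later intruder library, and only controls link those indices. Summed choroid plexus markers ran from 17.35 to 1795 CPM across amygdala libraries, with ranges of 23.8 to 232.7 for hypothalamus and 7.427 to 317.3 for frontal cortex.

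Markers of astrocytes outside the 8 were present in every region: in controls Fgfr3 averaged 149 ± 11.9 CPM (SD, n = 15) in amygdala, 143 ± 17.1 (n = 16) in frontal cortex and 177 ± 9.25 (n = 13) in hypothalamus, and Cldn10, the lowest of 5 such markers, 25.7 to 27.9. The region labels were matched by forebrain patterning genes, since Nkx2-1, a transcription factor of the ventral forebrain, was higher in hypothalamus than frontal cortex by 5.47 ± 0.215 and Emx2, one of the dorsal forebrain, was lower by -2.90 ± 0.084.

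All 8 genes were well covered, from 2499 reads for Aldh1l1 in its lowest library to 184627 for Slc1a2 in its highest. To compare genes with one another, levels were divided by the length of their exons (CPM per kb). On that scale Aldoc, the aldolase isoform of brain glycolysis, averaged 235.5 (amygdala), 265.4 (hypothalamus) and 264.5 (frontal cortex). Slc1a2, which encodes GLT-1, the main glutamate transporter of the forebrain, averaged 193.1, 94.09 and 238.9 CPM per kb in the same regions. The libraries of these 2 genes overlapped in frontal cortex, from 234 to 315.9 for Aldoc and from 176.4 to 299.1 for Slc1a2, and also in amygdala, from 213.3 to 272.1 and from 156 to 228.3. S100b, a calcium-binding protein, and Slc1a3, which encodes the glutamate transporter GLAST, followed with region averages of 71.34 to 88.37 CPM per kb. Their libraries overlapped in every region, and in hypothalamus they also overlapped those of Slc1a2. Gfap averaged 58.04 CPM per kb in amygdala and 51.69 in hypothalamus, but 25.7 in frontal cortex. Aqp4, the water channel of endfeet, averaged 19.52 to 26.39 CPM per kb, and Gja1, which encodes the gap junction protein connexin 43, 19.35 to 24.94, with overlapping libraries in each region. Aldh1l1, a folate enzyme used as a general astrocyte marker, was lowest at 13.19 to 15.75. By mean CPM per kb the order of the genes differed between regions only within the overlapping pairs: Slc1a3 stood above S100b in amygdala and below it elsewhere, and Gja1 stood above Aqp4 in hypothalamus and below it elsewhere.

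**Figure D1:**
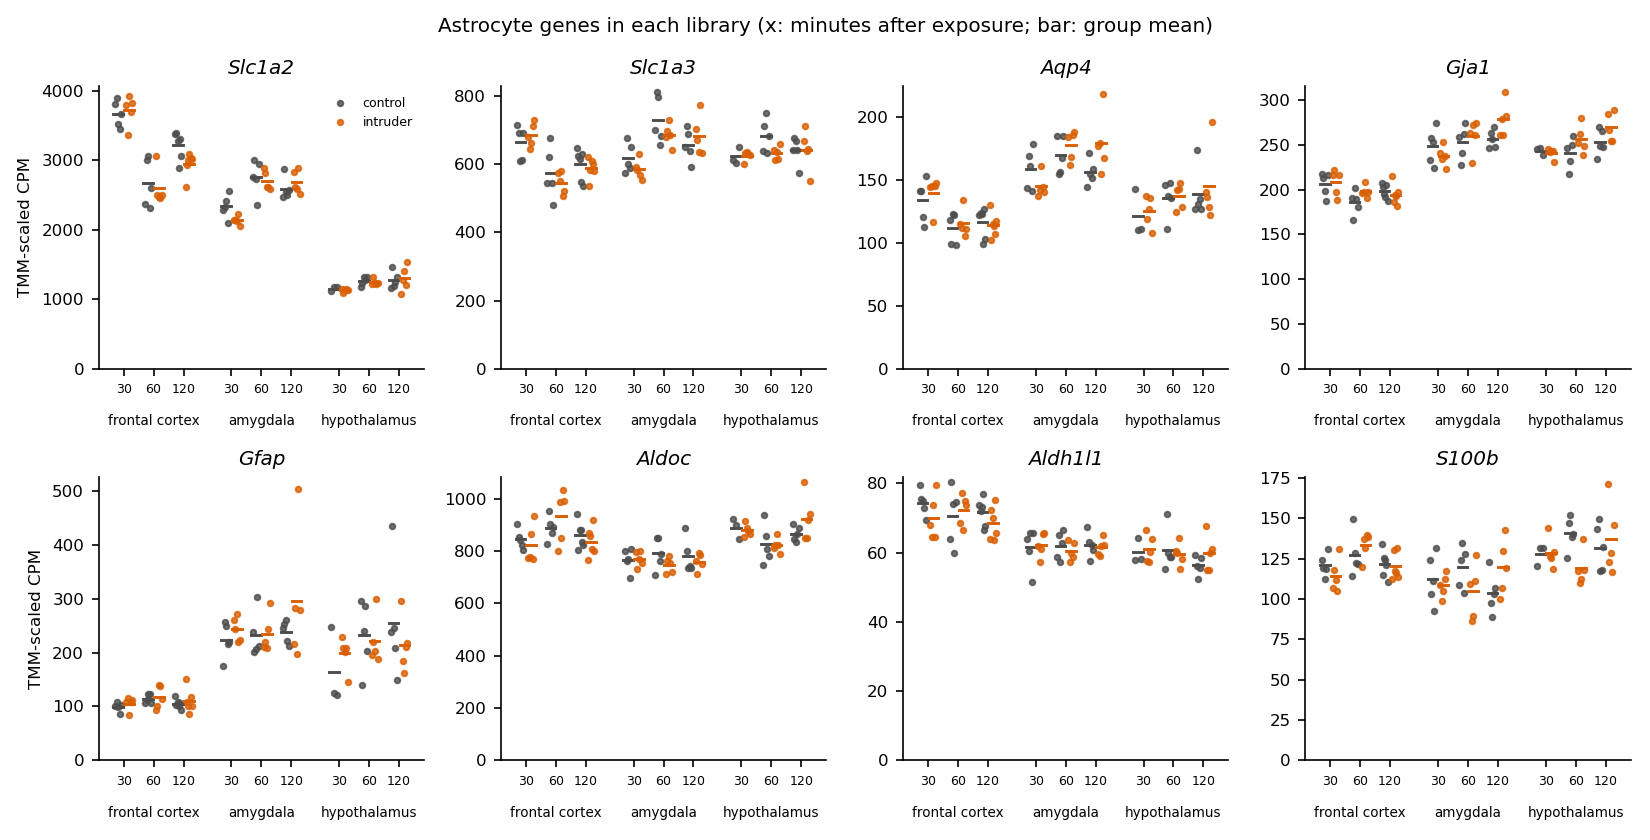
TMM-scaled CPM of each gene (y axis, 1 panel per gene) by region, minutes after exposure and condition; each point is 1 library and each bar a group mean. Slc1a2 falls into separate levels for hypothalamus (1075 to 1542 CPM) and the other regions, and Gfap is lowest in frontal cortex (83.2 to 150.1 CPM).

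The glutamate transporters differed from each other across regions. Slc1a2 (ENSMUSG00000005089, chromosome 2) lay between 1075 and 1542 CPM in the 28 hypothalamus libraries (median 1218), between 2049 and 2999 in the 30 of amygdala (median 2565), and between 2316 and 3929 in the 32 of frontal cortex (median 3068). No hypothalamus library reached the lowest library of either other region. Between amygdala and frontal cortex the difference averaged over the 3 times was -0.32 ± 0.04 in controls and -0.31 ± 0.036 in intruder libraries. Averaged in the same way, its hypothalamus level was lower than that of frontal cortex by a log2 fold change of -1.37 ± 0.045 (SE) in controls (adjusted p = 2.68e-27), a 2.59-fold difference. The intruder libraries, which came from other animals, gave -1.32 ± 0.037, and hypothalamus against amygdala gave -1.05 ± 0.044 in controls and -1.02 ± 0.037 in intruder libraries. In bulk tissue, fewer cells of a type and less RNA per cell cannot be told apart. Differences as large were common across the transcriptome: 14.8% of all genes tested in controls differed by as much or more between hypothalamus and frontal cortex. Slc1a3 (ENSMUSG00000005360, chromosome 15) had region averages within 609 to 660.3 CPM. Its hypothalamus libraries differed from frontal cortex by 0.07 ± 0.044 in controls (adjusted p = 0.13) and by 0.07 ± 0.031 in intruder libraries (adjusted p = 0.0444), a call that 11 of 16 fits without 1 animal lost.

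Of the 8 genes, 4 were called between hypothalamus and frontal cortex in controls and 6 in intruder libraries, against 82.2% and 83.2% of all genes tested. With the animal as a block, since regions share animals, the control count was 6, with Slc1a3 (0.07, adjusted p = 0.0262) and S100b (0.09, adjusted p = 0.0407) added, and the intruder count was 6. The control count became 7 with upper-quartile scaling and 6 without the 60 min control animal 2, and the intruder count became 4 without the 30 min intruder animal 3. Between amygdala and frontal cortex all 8 were called in both conditions, against 67.8% of all genes in each. Between hypothalamus and amygdala 4 were called in controls and 5 in intruder libraries, against 72.3% and 73.4%. Region differences were thus the rule for genes in general, and the sizes carry more than the counts.

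Gfap (ENSMUSG00000020932, chromosome 11) was the gene of the 8 with the largest difference between amygdala and frontal cortex. Its frontal cortex libraries ran from 83.2 to 150.1 CPM (median 107.1), its amygdala libraries from 175.7 to 504.4 (median 230.4), and its hypothalamus libraries from 120.4 to 435.7 (median 208.8). Amygdala and frontal cortex did not overlap in any library, while the lowest hypothalamus libraries fell among those of frontal cortex. Amygdala exceeded frontal cortex by 1.11 ± 0.108 in controls (adjusted p = 9.7e-12) and by 1.20 ± 0.103 in intruder libraries, and hypothalamus exceeded it by 1.00 ± 0.113 and 0.93 ± 0.103. Without 1 animal at a time, the amygdala difference ranged from 1.08 to 1.13 in controls and from 1.09 to 1.27 in intruder libraries. Of all genes tested, 8.43% differed by as much or more between amygdala and frontal cortex in controls. Between hypothalamus and amygdala the Gfap difference was -0.11 ± 0.115 in controls (adjusted p = 0.389) and -0.27 ± 0.103 in intruder libraries (adjusted p = 0.0163). The latter call was lost without the 120 min intruder animal 4 or the 60 min intruder animal 5.

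The genes of the endfoot and the gap junction were both higher in amygdala than in frontal cortex. Aqp4 (ENSMUSG00000024411, chromosome 18) ran from 137.4 to 218.8 CPM in amygdala (median 161.6), from 98.24 to 153.6 in frontal cortex (median 119.4), and from 107.8 to 196.2 in hypothalamus (median 135.3). The ranges overlapped at their edges, and amygdala exceeded frontal cortex by 0.41 ± 0.055 in controls and 0.43 ± 0.053 in intruder libraries. Gja1 (ENSMUSG00000050953, chromosome 10) ran from 222.6 to 308.7 CPM in amygdala, from 217.5 to 288.6 in hypothalamus, and from 165.8 to 222.1 in frontal cortex. Within each condition no amygdala library overlapped frontal cortex for Gja1, with differences of 0.35 ± 0.032 (adjusted p = 1.99e-12) and 0.36 ± 0.03. Hypothalamus and amygdala differed for Aqp4 by -0.29 in both conditions, but for Gja1 by only -0.04 ± 0.034 in controls (adjusted p = 0.333) and -0.01 ± 0.031 in intruder libraries (adjusted p = 0.822).

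Aldoc, Aldh1l1 and S100b differed less between amygdala and frontal cortex than Gfap, Aqp4 and Gja1 did. Aldoc (ENSMUSG00000017390, chromosome 11) was lower in amygdala, at 695.9 to 887.7 CPM, than in frontal cortex, at 763.7 to 1031, by -0.17 ± 0.033 in controls and -0.20 ± 0.034 in intruder libraries. Its hypothalamus level, 745.8 to 1062 CPM, differed from frontal cortex by -0.02 ± 0.035 and 0.02 ± 0.034, neither of which was called. Aldh1l1 (ENSMUSG00000030088, chromosome 6) was highest in frontal cortex, at 59.83 to 80.24 CPM against 51.62 to 67.3 in amygdala and 52.38 to 71 in hypothalamus. The differences were -0.24 ± 0.039 for amygdala and -0.30 ± 0.041 for hypothalamus in controls. S100b (ENSMUSG00000033208, chromosome 10) was lowest in amygdala, at 86.32 to 143 CPM, against 104.9 to 149.6 in frontal cortex and 110.1 to 171.1 in hypothalamus. It differed by -0.16 ± 0.049 between amygdala and frontal cortex and by 0.26 ± 0.053 between hypothalamus and amygdala in controls. For each of these 3 genes the libraries of any 2 regions overlapped.

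**Figure D2:**
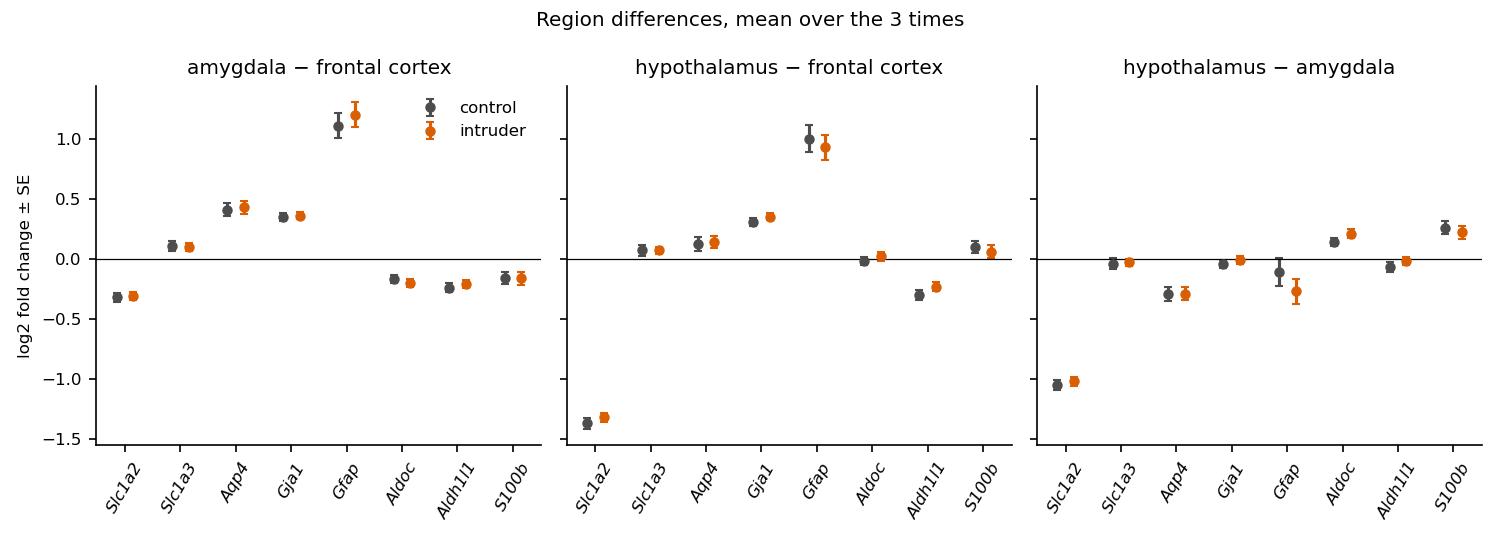
Log2 fold change between regions (y axis), averaged over the 3 times, for each gene in controls and in intruder libraries; points are edgeR estimates and bars 1 SE. Slc1a2 lies near -1.37 to -1.02 in both panels with hypothalamus, Gfap lies near 0.93 to 1.20 in both panels against frontal cortex, and all other values lie within 0.45 of 0.

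Other astrocyte genes were read for comparison from 9 lists, 119 of which were tested. In controls 98 of them (82.4%) were called between hypothalamus and frontal cortex, 51 higher and 47 lower in hypothalamus, with a median log2 fold change of 0.00. Between amygdala and frontal cortex 90 were called (75.6%), 48 higher and 42 lower, with a median of 0.06. The calls went both ways in each region pair, and their share was near that of all genes. Among amino acid handling genes, Slc6a11, the GABA transporter GAT-3, was higher in hypothalamus by 2.30 ± 0.06 and Slc6a9, the glycine transporter GlyT1, by 1.66 ± 0.076, while Gldc, of the glycine cleavage system, was lower by -1.76 ± 0.068. Of the ion and water list, 8 of 16 genes were higher in hypothalamus and 4 lower. Among them Kcnj10, the potassium channel Kir4.1, was higher by 0.99 ± 0.074 and Slc4a4, a sodium bicarbonate cotransporter, by 1.03 ± 0.059. Agt, angiotensinogen, was higher by 5.65 ± 0.118 and Sparc, a secreted matrix protein, by 3.46 ± 0.055, while Chrdl1, a secreted antagonist of bone morphogenetic proteins, was lower by -3.44 ± 0.128. The reactive astrocyte list, to which Gfap is often joined, had 5 of 15 genes higher and 4 lower in hypothalamus, with a median of -0.04. Of these 15, 4 had a median below 1 CPM in hypothalamus and 5 in frontal cortex, and 82.2% of all genes were called. Some genes of these lists are also expressed by other cells.

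Markers of other cell types also differed between regions, and their part in the differences of the 8 genes was not tested. Hypothalamus against frontal cortex in controls had 10 of 10 oligodendrocyte genes higher (median 0.59), 8 of 8 ependymal and tanycyte genes higher (median 2.67), 8 of 8 microglial genes lower (median -0.78), 8 of 8 endothelial genes lower (median -0.54), and 6 of 10 neuronal genes lower and 2 higher (median -0.54). Of the 8 ependymal and tanycyte genes, 5 had a median below 1 CPM in frontal cortex, so their fold changes are set against low levels. Summed neuronal markers ran from 4258 to 5523 CPM in hypothalamus, from 5782 to 7230 in amygdala and from 7516 to 9533 in frontal cortex. Their ranges did not overlap, and their order was that of Slc1a2. Summed ependymal and tanycyte markers ran from 61.49 to 147.2 CPM in hypothalamus, from 31.8 to 71.74 in amygdala and from 14.88 to 41.38 in frontal cortex, the region where Gfap was lowest.

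Time after the exposure was compared next, within controls and within intruder libraries, which are separate animals. In frontal cortex the transporters were highest at 30 min. Slc1a2 controls measured 3810, 3894, 3529, 3449 and 3672 CPM at 30 min. They fell to 2372, 3007, 3069, 2316 and 2600 CPM by 60 min and stood at 2894 to 3400 (median 3295) by 120 min. Intruder libraries measured 3796, 3362, 3929, 3693 and 3821 CPM at 30 min, 3063, 2497, 2475, 2460 and 2508 at 60 min, and 2622 to 3098 (median 3017) at 120 min. In both conditions every library of 60 min lay below every library of 30 min. The share of reads without a feature was also lower at 60 min, without overlap. It ran from 10.99% to 13.19% at 30 min, from 8.63% to 10.29% at 60 min and from 9.46% to 11.3% at 120 min. Its part in the change of Slc1a2 was not tested. The fall from 30 to 60 min was -0.47 ± 0.073 in controls (adjusted p = 3.66e-05) and -0.52 ± 0.073 in intruder libraries (adjusted p = 2.4e-06), and each of the 10 fits without 1 library kept each call. From 60 to 120 min the header token was the same, but the step and the leading index cannot be told apart in controls. Intruder libraries of 60 and 120 min shared no leading index either, and only controls link their indices. Slc1a2 rose over this step by 0.27 ± 0.07 in controls (adjusted p = 0.0139) and by 0.19 ± 0.07 in intruder libraries (adjusted p = 0.0487). The former call was lost without the 60 min control 5, and the latter in 9 of 11 fits without 1 library. The latter was also lost with upper-quartile scaling, with no filter on low counts, and with the leading library index as a block, where it came to 0.39. Of all genes, 15.9% and 22.9% were called over that step.

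Slc1a3 fell over the same step in frontal cortex. Intruder libraries measured 681.5, 643.9, 661.8, 711 and 729.6 CPM at 30 min and 573.4, 550.8, 579.4, 506 and 521.4 at 60 min, with no overlap. The change was -0.34 ± 0.072 (adjusted p = 0.000354). Controls, at 716.7, 692.6, 609.7, 611.7 and 691 CPM and then 544.6, 621.7, 677.9, 545 and 481.6, overlapped and gave -0.22 ± 0.072 (adjusted p = 0.018), a call lost in 5 of 10 fits without 1 library. So both uptake transporters were called as lower at 60 min in each condition, Slc1a3 by the smaller step.

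Aqp4 and Gja1 were also lower at 60 than at 30 min in frontal cortex controls. Aqp4 controls measured 141.7, 141.6, 120.8, 113 and 153.6 CPM at 30 min and 118, 99.36, 122.7, 122.3 and 98.24 at 60 min, which overlapped, and the change was -0.27 ± 0.091 (adjusted p = 0.022). Aqp4 intruder libraries measured 144.7, 145.6, 116.3, 145.3 and 147.3 CPM and then 115, 111.8, 134.3, 105.9 and 111.4, with 30 min library 3 among the later values, and the change was -0.28 ± 0.091 (adjusted p = 0.0121). The control call was lost in 5 of 10 fits without 1 library and the intruder call in 0 of 10. Gja1 controls measured 217.7, 212.8, 198.7, 187.3 and 216.1 CPM at 30 min and 191.1, 165.8, 202.4, 189.1 and 180.1 at 60 min, an overlapping change of -0.16 ± 0.055 (adjusted p = 0.0216) that 5 of 10 such fits lost. S100b moved upwards instead: intruder libraries measured 106.8, 117.7, 111.5, 104.9 and 130.9 CPM at 30 min and 119.9, 137.1, 131.8, 139.9 and 138.6 at 60 min, a change of 0.21 ± 0.067 (adjusted p = 0.00944) that 10 of 10 such fits kept. Aldoc intruder libraries went from 773.8, 774.6, 862.7, 769.2 and 933 CPM to 800.6, 988.5, 850.3, 1031 and 992.4, a change of 0.17 ± 0.063 (adjusted p = 0.0261) that 6 of 10 such fits lost. Both S100b and Aldoc overlapped between the times. Neither Gfap nor Aldh1l1 was called over this step in either condition. Between 30 and 60 min 4 of the 8 genes were thus called in controls and 5 in intruder libraries, against 35.4% and 45.5% of all genes. From 30 to 120 min 0 of the 8 were called in controls and 3 in intruder libraries, against 755 and 3021 of the 17091 genes tested. Those 3 were Slc1a2 (-0.33), Aqp4 (-0.29) and Slc1a3 (-0.22), of which Slc1a3 was lost in 3 of 11 fits without 1 library.

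Over all 3 times together, an F test called 3 of the 8 genes in frontal cortex controls (Slc1a2, Aqp4 and Slc1a3) against 33.4% of all genes, and 5 in intruder libraries (those 3, S100b and Aldoc) against 46.1%. These counts were sensitive to single libraries. The control count fell to 1 without any one of the 30 min controls 1, 2 and 5, the 60 min controls 1 and 6 or the 120 min controls 4 and 6, and also with upper-quartile scaling or no filter on low counts. The intruder count fell to 3 without any one of the 30 min intruder libraries 1 and 4 or the 60 min intruder libraries 2, 4 and 5.

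Other cell markers moved over the same step in frontal cortex. Oligodendrocyte genes were higher at 60 than at 30 min, 10 of 10 in controls (median 0.79) and 9 of 10 in intruder libraries (median 0.64). Their summed level ran from 3276 to 4193 CPM at 30 min and from 4777 to 7483 at 60 min in controls, and from 2582 to 4333 and 4571 to 6762 in intruder libraries. Meningeal genes were lower (5 of 6 in controls, median -0.42), as were those of pericytes and smooth muscle (5 of 7, median -0.50), and the metallothioneins were higher (3 of 3, median 0.50). Of the 119 other astrocyte genes, 42 were called in controls (35.3%), 12 higher and 30 lower, and 54 in intruder libraries (45.4%), 24 higher and 30 lower. Lower genes included S1pr1, a sphingosine phosphate receptor, at -1.17 ± 0.128, Slc7a11, the cystine and glutamate exchanger, at -0.63 ± 0.086, and Kcnj16, a potassium channel subunit, at -0.36 ± 0.063, all in controls. The part of these other changes in the fall of the transporters was not tested.

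In amygdala the genes called with time were higher after 30 min, and calls were made in intruder libraries only. Slc1a2 intruder libraries measured 2139, 2135, 2133, 2222 and 2049 CPM at 30 min. The 60 min libraries measured 2891, 2817, 2615, 2614 and 2593 CPM, and those of 120 min measured 2833, 2616, 2585, 2884 and 2511. All 10 later libraries lay above the 5 of 30 min, and 3 of the 8 genes were called at 60 min against 7.41% of all genes and 4 at 120 min against 15.0%. The share of reads without a feature in these libraries ran from 10.77% to 11.95% at 30 min. It ran from 11.69% to 13.76% at 60 min and from 12.3% to 13.5% at 120 min, and its part in the changes was not tested. The 60 min change of Slc1a2 was 0.34 ± 0.061 (adjusted p = 0.0018), and its 120 min change was 0.33 ± 0.061 (adjusted p = 0.000782). Controls measured 2281, 2329, 2415, 2098 and 2562 CPM at 30 min and 2767, 2999, 2736, 2364 and 2942 at 60 min, which overlapped and gave 0.24 ± 0.06 (adjusted p = 0.126), with 0.133% of all genes called. Slc1a3 in intruder libraries went from 591.2, 583.6, 630.9, 569.7 and 554.6 CPM at 30 min to 681, 698, 729.7, 684.7 and 642.4 at 60 min, without overlap, a change of 0.23 ± 0.065 (adjusted p = 0.0301). That call was lost in 8 of 10 fits without 1 library, whereas each of the 10 kept the Slc1a2 call. With the leading library index as a block, both Slc1a2 calls were lost (adjusted p = 0.53 and 0.428), with changes of 0.35 and 0.37.

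Aqp4 and Gja1 were higher later in amygdala intruder libraries. Aqp4 measured 137.4, 142.5, 161, 144.9 and 140.9 CPM at 30 min, all below the 184.3, 161.8, 168.2, 185.5 and 188.4 of 60 min, and rose by 0.29 ± 0.079 (adjusted p = 0.0243). At 120 min it measured 176.8, 179.2, 155.2, 218.8 and 167.3 CPM, which overlapped the 30 min values, a rise of 0.30 ± 0.079 (adjusted p = 0.0101). Gja1 measured 241.5, 234.7, 253.4, 237.1 and 222.6 CPM at 30 min and 261.1, 279.3, 261.1, 308.7 and 282.6 at 120 min, without overlap, and rose by 0.23 ± 0.059 (adjusted p = 0.0106). The 60 min call of Aqp4 was lost in 6 of 10 fits without 1 library, and the 120 min call of Slc1a3, a change of 0.22 ± 0.065, also in 6 of 10. With the leading library index as a block the called changes from 30 min in amygdala intruder libraries were all lost, and the 120 min change of Aqp4 came to 0.46. Over the 5 alternatives that kept every library, this block included, Slc1a3 stayed at 0.21 to 0.23 for 60 min and 0.17 to 0.22 for 120 min. The 60 min change of Aqp4 stayed at 0.27 to 0.29 and the 120 min change of Gja1 at 0.20 to 0.26. Leaving out the 120 min intruder library 4, the highest of its group for 7 of the 8 genes, ended the 120 min calls of Aqp4 (then 0.21), Gja1 (then 0.18) and Slc1a3 (then 0.16).

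The F test over the 3 times called 4 of the 8 genes in amygdala intruder libraries against 12.9% of all genes, and 0 in controls against 0.232%. In controls 2 of the 8 had an unadjusted edgeR p below 0.05, and DESeq2 called 1. The intruder count fell to 1 without the 30 min intruder library 1 or 5, to 2 without library 2 or 4, and to 0 with the leading library index as a block. Whether the change with time differed between conditions was tested as an interaction, and edgeR called 0 of the 8 genes in any region, against 0.0% of all genes in amygdala and frontal cortex and 0.0113% in hypothalamus. An unadjusted p below 0.05 was found for 2 genes in amygdala and 0 elsewhere, and DESeq2 called 0. The difference between the calls of the 2 conditions is therefore not itself a called difference. In the same amygdala libraries 6 of 8 endothelial genes were lower at 120 than at 30 min (median -0.72) in the intruder group, and their part was not tested. Of the 119 other astrocyte genes 21 were called there at 120 min against 30 min (17.6%), 18 higher and 3 lower.

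In hypothalamus 0 of the 8 genes were called with time in either condition, against 0.181% of all genes in controls and 1.49% in intruder libraries. By unadjusted p below 0.05 in edgeR these were 0 in controls and 3 in intruder libraries, and DESeq2 called 0 in both. Slc1a2 controls measured 1112, 1176 and 1174 CPM at 30 min. The 60 min controls measured 1181, 1237, 1320, 1276 and 1323 CPM, and those of 120 min measured 1163, 1464, 1184, 1249 and 1317. The 60 min controls lay above those of 30 min, but the change was only 0.14 and was not called. Gfap controls at 30 min spread from 120.4 and 125 to 248 CPM, so that its change of 0.64 ± 0.284 by 120 min gave an adjusted p of 0.434.

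**Figure D3:**
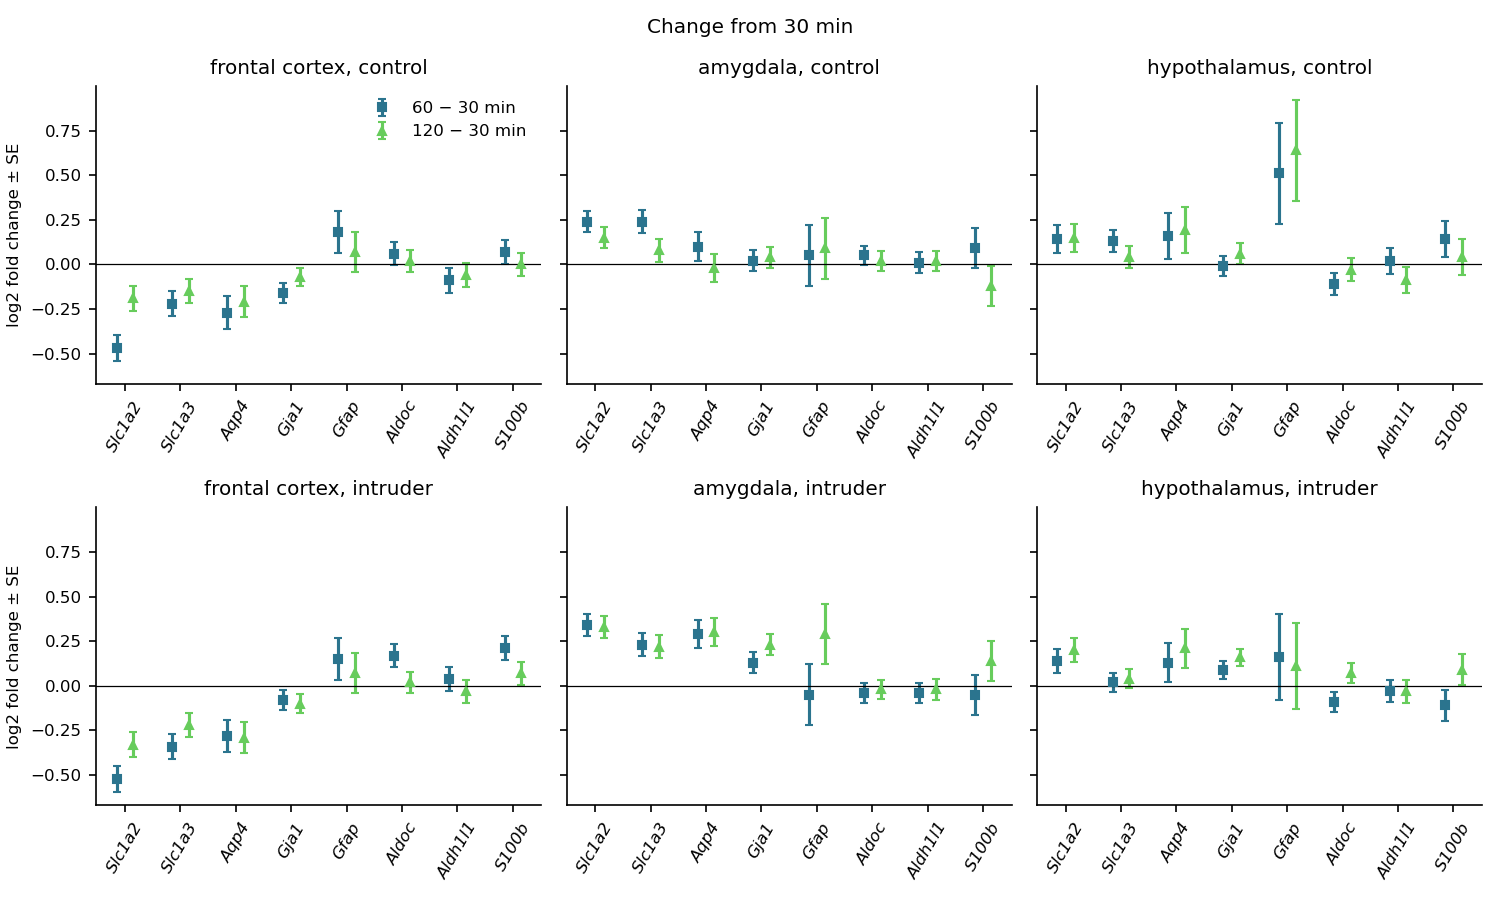
Log2 change from 30 min to 60 min and to 120 min (y axis) for each gene by region (columns) and condition (rows); points are edgeR estimates and bars 1 SE. The Slc1a2 points lie below 0 in frontal cortex (-0.52 to -0.19) and above 0 in amygdala and hypothalamus, with 0.34 the highest in amygdala.

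The change from 30 to 60 min was also compared between regions, a test chosen once the data were known. These regions came from the same animals, but whether the header token or the leading index acted differently by region was not tested. In controls the amygdala change of Slc1a2 exceeded that of frontal cortex by 0.70 (adjusted p = 4.95e-06) and that of Slc1a3 by 0.45 (adjusted p = 0.00226), and these were the 2 of 8 genes called, against 18.8% of all genes. In intruder libraries the differences were 0.85 and 0.55, and 5 of the 8 genes were called against 41.9%. Hypothalamus exceeded frontal cortex in the same way for Slc1a2, by 0.58 in controls and 0.65 in intruder libraries, where 3 and 5 genes were called against 23.2% and 33.6%. Each of the 16 fits without 1 animal kept each of the 4 Slc1a2 calls, while some calls of other genes rested on few animals. Between hypothalamus and frontal cortex, Slc1a3 was lost in 4 of 16 such fits and Aqp4 in 7 in controls, and Aqp4 in 2 and S100b in 7 in intruder libraries. Between amygdala and frontal cortex, Gja1 was lost in 6 of 16 and Aldoc in 5 in intruder libraries. Hypothalamus and amygdala did not differ in this change for any of the 8 genes by this test, nor for any other gene (edgeR called 0.0% in both conditions), with an unadjusted p below 0.05 for 0 of the 8 in controls and 2 in intruder libraries. With the change of time, the region difference of Slc1a2 also moved: amygdala was below frontal cortex by -0.66 ± 0.071 at 30 min in controls, differed by 0.03 ± 0.071 at 60 min (adjusted p = 0.718), and was below by -0.33 ± 0.068 at 120 min. Intruder libraries gave -0.81 ± 0.063, 0.04 ± 0.063 and -0.15 ± 0.06. At those times 48.6%, 53.5% and 49.9% of all genes were called in controls and 49.5%, 59.5% and 54.0% in intruder libraries. The regional averages of Slc1a2 thus combine times at which amygdala and frontal cortex differed and 1 at which no difference was called.

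The study's main contrast, a meeting with the male against the cage with a paper cup, gave no called change in these genes. Across 3 regions and 3 times, 0 of 72 tests were called by edgeR, while 3 had an unadjusted p below 0.05, and DESeq2 also called 0. The share of all genes called was 0.0% in 7 of the 9 comparisons, 0.538% for the 120 min amygdala and 0.192% for the 120 min hypothalamus. Log2 fold changes ran from -0.26 to 0.31 with a median of 0.01, and 65 of the 72 were smaller than 0.15 in size. In no comparison did the 2 conditions separate without overlap. For Slc1a2 the 9 confidence intervals (95%) together spanned -0.25 to 0.17, and for Slc1a3 -0.21 to 0.19. For Gja1 they spanned -0.18 to 0.24, for Aldoc -0.19 to 0.20 and for Aldh1l1 -0.22 to 0.21, while Aqp4 had -0.28 to 0.36, S100b -0.42 to 0.43 and Gfap, which varied most, -0.73 to 0.82. A missed threshold does not show equal levels.

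The 3 smallest p-values belonged to 3 genes and 3 settings. S100b in hypothalamus at 60 min measured 125.5, 147.3, 151.9, 138.2 and 140.3 CPM in controls and 117.6, 110.1, 112.3, 137.2 and 118.1 in intruder libraries, a change of -0.24 (adjusted p = 1). Aqp4 in amygdala at 120 min measured 144.2, 171.5, 154.9, 151.5 and 158.7 CPM in controls and 176.8, 179.2, 155.2, 218.8 and 167.3 in intruder libraries, a change of 0.20 (adjusted p = 0.213). Slc1a2 in amygdala at 30 min measured 2281, 2329, 2415, 2098 and 2562 CPM in controls against 2139, 2135, 2133, 2222 and 2049, a change of -0.13 (adjusted p = 1). In each of the 3 comparisons the conditions overlapped. The 120 min Gfap differences rested on single libraries. In amygdala controls measured 246.5, 252.8, 260.8, 221.4 and 212.6 CPM and intruder libraries 216.5, 283.5, 197.9, 504.4 and 279.8. The difference of 0.31 came to 0.03 without intruder library 4, the one at 504.4. In hypothalamus controls measured 237.4, 435.7, 245.8, 209.2 and 149.3 CPM and intruder libraries 295, 184.4, 162.3, 210.1 and 217.7. The difference of -0.26 came to 0.02 without control 2, the one at 435.7. Of the 119 other astrocyte genes 0 were called in any of the 9 comparisons.

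**Figure D4:**
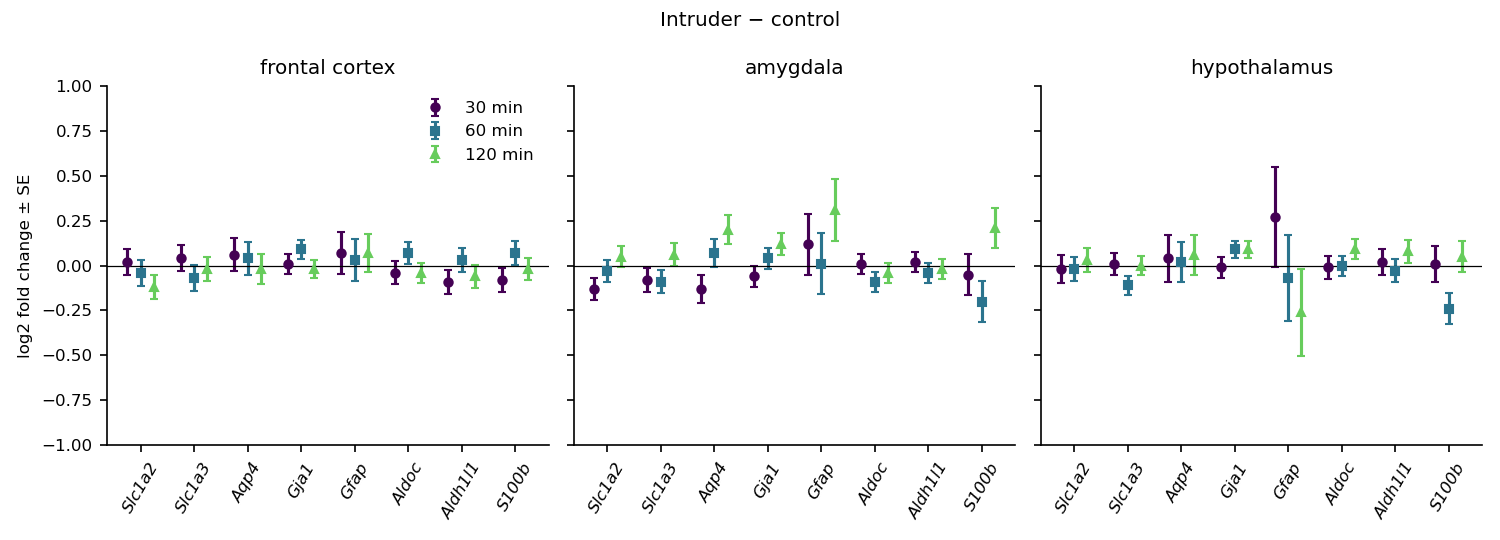
Log2 fold change of intruder against control libraries (y axis) for each gene, by region (panels) and time (symbols); points are edgeR estimates and bars 1 SE. The values lie between -0.26 and 0.31, and none was called.

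Last, it was asked which of the 8 genes varied together between animals of the same group. Group means were removed from log2 CPM and each pair was correlated within a region, 84 pairs in all, with a permutation test of libraries within groups. Of these, 16 were called by Pearson r after Benjamini-Hochberg adjustment, all positive by Pearson and Spearman and all still positive without the 2 libraries farthest from the median. Aqp4 and Gja1 were called in every region: r was 0.79 in amygdala (n = 30, rho 0.77, permutation p = 3e-05, adjusted p = 0.00063, r 0.75 without 2 libraries) and 0.79 in frontal cortex (n = 32, rho 0.82, permutation p = 1e-05, the smallest that 100000 permutations can give, r 0.76 without 2). In hypothalamus r was 0.63 (n = 28, rho 0.66, permutation p = 0.00036, adjusted p = 0.00504, r 0.54 without 2). In a split by time chosen after seeing the data, these values were 0.91, 0.70 and 0.66 within the 30 min libraries and 0.73, 0.85 and 0.66 within the later ones.

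Gfap went with Aqp4 in all 3 regions, with r of 0.63 in amygdala (adjusted p = 0.0308 by permutation, r 0.39 without 2 libraries), 0.53 in frontal cortex and 0.72 in hypothalamus. It went with Gja1 in amygdala (0.58) and frontal cortex (0.48). The glutamate transporters Slc1a2 and Slc1a3 went together in amygdala (0.56) and frontal cortex (0.60), and Slc1a3 went with Aqp4 in frontal cortex (0.64). Aldh1l1 and Aldoc correlated at 0.79 in frontal cortex and 0.72 in hypothalamus, where r was -0.42 within the 30 min libraries and 0.91 within the later ones. S100b went with Aldh1l1 in amygdala (0.65) and frontal cortex (0.63), and with Aldoc in frontal cortex (0.75). Over the 16 called pairs rho ran from 0.52 to 0.82, the adjusted permutation p from 0.00028 to 0.0424, and r without 2 libraries from 0.39 to 0.84. Of the other pairs none was called by Pearson r and 2 were by Spearman: Aldoc with S100b in amygdala (rho 0.50, adjusted permutation p = 0.0417) and Slc1a3 with Gja1 in frontal cortex (rho 0.49, adjusted permutation p = 0.0417). The median r over all pairs was 0.28 for amygdala, 0.16 for frontal cortex and 0.01 for hypothalamus.

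**Figure D5:**
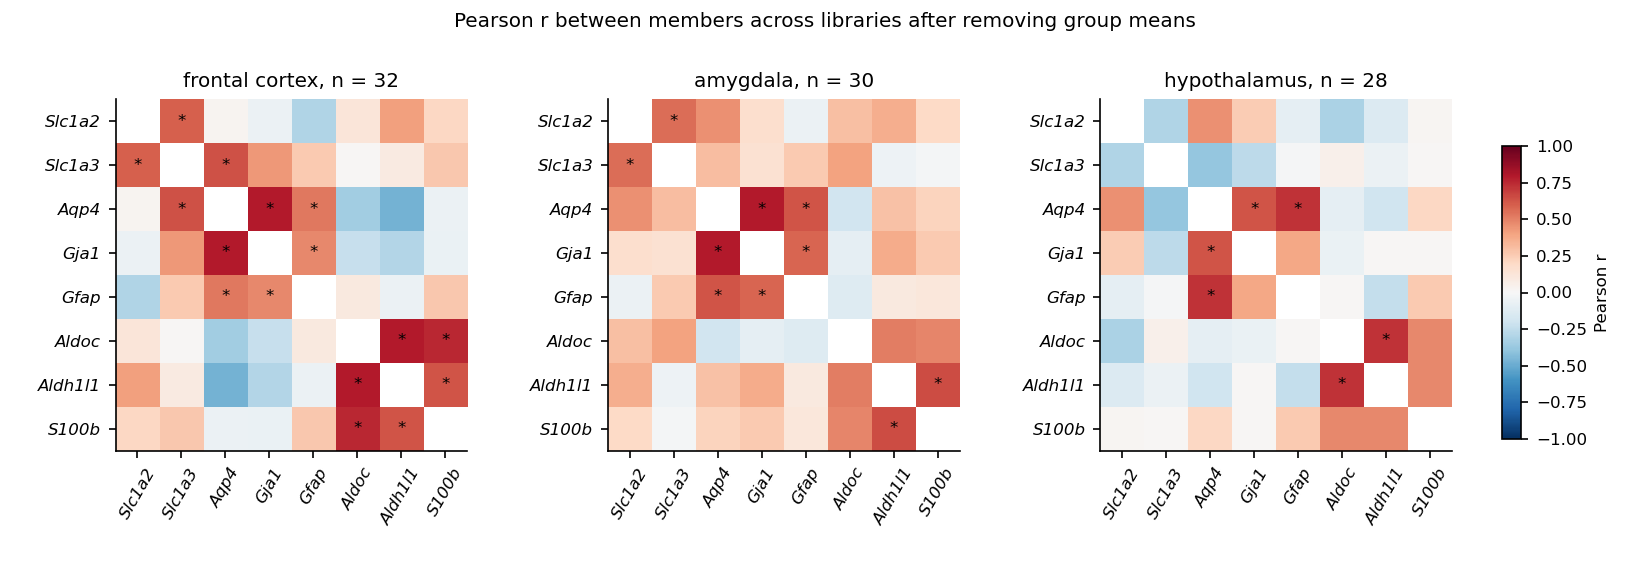
Pearson r between genes within each region (color scale), from log2 CPM with group means removed; asterisks mark an adjusted permutation p below 0.05. The called pairs gather around Aqp4 with Gja1 and Gfap (0.48 to 0.79) and around Aldh1l1, Aldoc and S100b (0.63 to 0.79).

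The same measure was set against lists of other cell markers, each taken as the mean log2 CPM of its genes with group means removed. Of the 216 relations, chosen after seeing the data, 15 were called by the permutation test of Pearson r. S100b, which oligodendrocytes are known to express too, went with the oligodendrocyte list in amygdala (r 0.83, rho 0.82, adjusted permutation p = 0.00108, r 0.80 without 2 libraries) and hypothalamus (r 0.74), and with the microglial list in amygdala (r 0.84) and frontal cortex (r 0.59). It also went with the neuronal list in amygdala (r 0.52, rho 0.53 with an adjusted permutation p of 0.0512). Aldh1l1 went with the oligodendrocyte (r 0.62) and microglial lists (r 0.65) in amygdala, and Aldoc with the microglial list in amygdala (r 0.60) and frontal cortex (r 0.68). Gja1 went with choroid plexus in hypothalamus (r 0.66), where 3 of the 6 list genes had a median below 1 CPM. Gfap went with the oligodendrocyte (r 0.55) and ependymal lists (r 0.63, rho 0.48 with an adjusted permutation p of 0.0845) in frontal cortex and with choroid plexus in amygdala (r 0.47), and against the neuronal list in amygdala (r -0.49). In frontal cortex 5 of the 8 ependymal genes had a median below 1 CPM, as did 2 of the 6 choroid plexus genes in amygdala. Such genes weighed as much as the others in the list means. Slc1a3 went against the neuronal list in frontal cortex (r -0.57). For Aqp4 and Slc1a2 no relation was called by Pearson r, but 2 were by Spearman in hypothalamus: Aqp4 with choroid plexus (rho 0.65, adjusted permutation p = 0.0259) and Slc1a2 against the ependymal list (rho -0.61, adjusted permutation p = 0.0455). Dissection, cell content and regulation within cells all enter these values, and their shares were not tested.

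Among all 18337 genes kept in the 90 libraries, those closest to each of the 8 were found by Pearson r. Over the 18 group means, which are shaped mostly by region, Slc1a2 was closest to Rps6ka3 (r 0.996) and Tcf4 (r 0.995), and Gfap to 6430628N08Rik (r 0.97), Rerg and Mycl (both r 0.969). With group means removed (n = 90), Gfap was closest to Myoc (r 0.787), Vim (r 0.739) and Sema3b (r 0.733), and Aqp4 to Emp2 (r 0.657), Myoc (r 0.652) and Bmpr1b (r 0.639). These pooled values differed by region: Gfap with Myoc had r 0.94 in hypothalamus, 0.64 in amygdala and 0.39 in frontal cortex, and Aqp4 with Myoc 0.82, 0.64 and 0.36. On that measure Slc1a2 was closest to Luzp2 (r 0.758), Slc1a3 to Pdgfra (r 0.683), Gja1 to Glud1 (r 0.705), Aldoc to Ndrg2 (r 0.801), Aldh1l1 to Timp4 (r 0.686) and S100b to Fth1 (r 0.841). Such correlations share library and depth and are given as a description.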

How the data were processed

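Per the labels, poly(A) libraries were stranded and sequenced single-end. The submitters' processing notes name TopHat2 2.0.8, HTSeq 0.6.1 and build NCBIM37; whether counting used strand is not given in the sources used here, so reads where Gfap, Aqp4, Slc1a2, Aldh1l1 or S100b overlap a gene on the other strand are uncertain. The values deposited by the authors are raw counts. Their 5 rows without a gene (8.63% to 14.46% of reads without a feature) were left out. Names and lengths came from Gencode M21, which named 32919 identifiers.

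The members and lists were chosen with earlier results of these data known. Genes to name beside the 8 were the called list genes with the largest changes, up to 2 each way per list, and genes among the 3 with the highest r to each of the 8 on either measure, not all of which are reported here.

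Regions were fitted apart for condition and time, and conditions apart for region, with edgeR 4.0.16 (R 4.3.3): filterByExpr, TMM scaling, quasi-likelihood F test, adjusted p below 0.05, two-sided. The code was tested on simulated data. Correlations used log2 CPM with a prior count of 2. Regions share animals; deviations of an animal's regions correlated with medians of 0.02 to 0.14, and an animal block was an alternative, as were other scalings, no filter, an index block, DESeq2 1.42.0 and fits without each library.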

Additional observations from a re-analysis of the deposited data

Results flagged for a closer look

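Of 136 sets of 1 gene in 1 group of 4 or more libraries, 13 held a library far from the rest, where chance gives about 1 in 20, or 6.8. For Gfap these were 504.4 CPM in amygdala intruder 4 at 120 min, 299.6 CPM in hypothalamus intruder 4 at 60 min and 83.2 CPM in frontal cortex intruder 3 at 30 min. For Aqp4 they were 174.2 CPM in hypothalamus control 2 and 196.2 CPM in hypothalamus intruder 6, both at 120 min, and 116.3 CPM in frontal cortex intruder 3 at 30 min. Slc1a2 had 2872 CPM in amygdala control 2 at 120 min, 1316 CPM in hypothalamus intruder 2 at 60 min, 3063 CPM in frontal cortex intruder 1 at 60 min and 2622 CPM in frontal cortex intruder 1 at 120 min. The others were Aldh1l1 at 71.0 CPM in hypothalamus control 2 at 60 min, Slc1a3 at 600.6 CPM in hypothalamus intruder 5 at 30 min and Gja1 at 230.8 CPM in hypothalamus intruder 4 at 30 min.

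The change from 30 to 60 min differed between regions in 15 of 48 tests of that difference in log2 change, which were chosen with the data known. Of all genes, 18.8% (controls) and 41.9% (intruder libraries) were called for amygdala minus frontal cortex, 23.2% and 33.6% for hypothalamus minus frontal cortex, and 0.0% in both for hypothalamus minus amygdala. Amygdala minus frontal cortex gave 0.70 for Slc1a2 and 0.45 for Slc1a3 in controls. In intruder libraries it gave 0.85 for Slc1a2, 0.55 for Slc1a3, 0.56 for Aqp4, 0.20 for Gja1 and -0.23 for Aldoc. Hypothalamus minus frontal cortex gave 0.58 for Slc1a2, 0.34 for Slc1a3 and 0.41 for Aqp4 in controls. In intruder libraries it gave 0.65 for Slc1a2, 0.34 for Slc1a3, 0.40 for Aqp4, -0.28 for Aldoc and -0.34 for S100b.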

How the results depend on the processing

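Of 7104 values of the 8 genes under alternatives none that was called in the main fit turned its sign, while 242 uncalled ones did. Counts of called genes that moved by over 1.5 times in the main comparisons, and that of the animal block, were as follows, and the cause was not tested. The time test in amygdala controls gave 1 with DESeq2 (0 in the main fit), and in amygdala intruder libraries 0 with the index block (4). The time test in frontal cortex controls gave 1 with upper-quartile scaling and 1 with no filter (3). Control hypothalamus minus frontal cortex gave 7 with upper-quartile scaling and 6 with the animal as replicate block (4). Without 1 library at a time, the time counts ran from 1 to 4 in amygdala intruder libraries, from 1 to 4 in frontal cortex controls and from 3 to 5 in frontal cortex intruder libraries. Without 1 animal at a time, hypothalamus minus frontal cortex ran from 4 to 6 in each condition. Among single calls, no filter ended Slc1a3 in intruder hypothalamus minus frontal cortex and in amygdala intruder libraries from 30 to 60 min. In the comparison of that step between regions it ended Aqp4 in controls and S100b in intruder libraries, both hypothalamus minus frontal cortex, and upper-quartile scaling ended Gja1 in intruder amygdala minus frontal cortex. A fit with the index block was not possible for the intruder comparison in frontal cortex at 120 min, for the interaction there, or for time in frontal cortex and hypothalamus, apart from the 60 to 120 min step of frontal cortex intruder libraries and the 30 to 60 min step of hypothalamus. The 16 called correlations numbered 16 also with a prior count of 0.5 and with RLE scaling.

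Equal replicate numbers did not pair intruder and control libraries: correlations of their deviations ran from -0.43 to 0.49, and in 0 of 9 sets did all exceed 0.1. With the replicate block the intruder comparisons called 0 genes of the 8, as without it. Depth did not limit these genes, the lowest of which had 2499 reads, but 3 to 6 libraries per group, the header token and the leading index limit the time comparisons.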
